A study of Mus musculus with 4 samples.

Results

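The classical complement cascade was followed in cultured astrocytes, glia that support neurons, through 10 of its genes among the 55467 genes listed in each library. The genes were chosen by name, from C1q to the C3a receptor, and were C1qa, C1qb, C1qc, C1ra, C1s1, C2, C3, C4b, Serping1 and C3ar1. These genes and the gene lists used beside them were chosen with earlier results of these data known. RNA was sequenced from 4 libraries of primary mouse cortical astrocytes, 2 from wild-type mice (WT) and 2 from mice without CD38 (CD38 KO), a surface enzyme that consumes NAD+. Cortices of pups 1 to 3 days old were dissociated and grown for 14 days with 10% serum, flasks were shaken for 12 h and the supernatant removed, and the remaining astrocytes were plated again for a further 5 days. No treatment was given to either genotype, and the labels name neither the strain, the deleted exons, the sex of the pups nor whether animals were pooled. Loss of Cd38 and a strain difference between the genotypes therefore cannot be told apart. Nor do the labels state that the replicates are separate animals or cultures, so the spread behind each p-value is that of these libraries and may be technical.

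The classical pathway starts when C1q, a bundle of A, B and C chains, binds antibody, a microbe, cell debris or a synapse. C1q activates the protease C1r, which cleaves C1s, and C1s then cleaves C4 and C2 to build the enzyme that splits C3, while the C1 inhibitor encoded by Serping1 blocks C1r and C1s. In brain, C1q is known mainly as a product of microglia and C3 as a product of reactive astrocytes, and fragments of C3 tag synapses for removal or act on phagocytes through the receptor C3aR. This division of labour is background and was not measured here.

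The upstream sequences of 4 of the genes are shown because the C1q chain genes on one side and C1s1 and C3 on the other differed in opposite directions between the genotypes. RefSeq entries for GRCm38.p6 matched 6 of the 10 genes, C1qb, C1qc, C3ar1, C1ra, C1s1 and C3. Each is written 5′ to 3′ on the gene's own strand, the minus strand for all 4, and only the part outside annotated exons is printed. Capitals mark letters that match a searched motif on either strand. C1qb is shown for chr4:136886201-136886450, C1qc for chr4:136893066-136893164, C1s1 for chr6:124542360-124542609 and C3 for chr17:57228137-57228386.
C1qb: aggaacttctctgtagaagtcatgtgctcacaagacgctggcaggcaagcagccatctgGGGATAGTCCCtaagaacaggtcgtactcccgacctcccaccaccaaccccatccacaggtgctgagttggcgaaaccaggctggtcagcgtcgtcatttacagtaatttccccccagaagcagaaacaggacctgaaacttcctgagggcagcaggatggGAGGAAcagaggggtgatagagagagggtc
C1qc: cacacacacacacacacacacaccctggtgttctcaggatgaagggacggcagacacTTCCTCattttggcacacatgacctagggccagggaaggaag
C1s1: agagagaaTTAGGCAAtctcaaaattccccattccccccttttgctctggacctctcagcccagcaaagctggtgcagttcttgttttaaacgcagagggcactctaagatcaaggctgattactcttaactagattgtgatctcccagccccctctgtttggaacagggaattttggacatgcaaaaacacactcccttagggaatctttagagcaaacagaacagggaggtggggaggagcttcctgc
C3: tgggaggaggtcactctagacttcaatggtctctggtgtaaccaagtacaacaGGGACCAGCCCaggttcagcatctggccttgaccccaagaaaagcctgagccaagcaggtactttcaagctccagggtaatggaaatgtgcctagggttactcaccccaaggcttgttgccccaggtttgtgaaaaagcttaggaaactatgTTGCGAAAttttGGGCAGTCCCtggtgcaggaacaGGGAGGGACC

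The letters GAGGAA, the core bound by the myeloid factor PU.1 and other ETS proteins, were found upstream of C1qb, beginning 30 bases before the RefSeq start, and upstream of C1qc on the opposite strand, beginning 193 bases before it. They were absent from the 250 bases upstream of C3ar1, C1ra, C1s1 and C3, and they occur in 23.3% of the 32851 RefSeq upstream windows of this length. Of the C1ra window only the first 34 bases lie before the annotated gene, so the rest of that search covered the gene itself. The NF-kB pattern (GGG, any 5 bases, then CC) matched upstream of C3, in 3 places when overlapping matches on both strands are counted once, and also upstream of C1qb, C1qc, C3ar1 and the second annotated start of C1s1. It is common, in 45.8% of all windows, and the matches of C1qc and of the second C1s1 start lie in exon sequence that is not printed. The C/EBP pattern (TT, any 2 bases, then GCAA) matched upstream of C3 and C1s1, against 9.56% of windows. The STAT pattern (TTC, any 3 bases, then GAA; 7.02% of windows) and the interferon response pattern (GAAA, any 2 bases, then GAAA; 2.98%) matched in none of the 6 genes' windows. The TATA box TATAAA matched upstream of C3ar1 alone among the 6, against 12.4% of windows. A match is a string of letters and no measure of binding.

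The genes lie on chromosomes 2, 4, 6 and 17 in GRCm38, and none shares chromosome 5 with Cd38. C1qb, C1qc and C1qa stand side by side on chromosome 4 within 18.7 kb (136880129 to 136898803). C1ra (chromosome 6, 124512405 to 124523443) and C1s1 (124530345 to 124542359) are neighbours on opposite strands. C4b and C2 lie in the major histocompatibility region of chromosome 17, C3 lies farther along the same chromosome (57203970 to 57228136), Serping1 is on chromosome 2 (84765387 to 84775444) and C3ar1 on chromosome 6 (122847138 to 122856161).

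Levels are given in FPKM, fragments scaled to transcript length and to the mapped fragments of the library, as the authors deposited them. Differences were tested with limma on log2(FPKM + 1) across all 13064 genes whose mean reached 1 FPKM, and a gene is called when its Benjamini-Hochberg adjusted p is under 0.05. The libraries held an estimated 26862000 to 29082000 fragments, and Pearson's r across genes, which are not independent replicates, was 0.985 to 0.990 within and 0.964 to 0.968 between genotypes. Cd38 stood at 3.13 and 3.45 FPKM in WT and at 0.0222 in each CD38 KO library, where the genotype labels put them. Of the 12 astrocyte markers 2 were called higher and 8 lower, with a summed level of 5008 to 5065 FPKM in WT and 4111 to 4196 in CD38 KO, led by Glul and Gfap. All 12 were at 3.51 FPKM or more in every library. Of 20 microglia and macrophage markers 17 could be tested and 15 were called higher, and their summed level was 232 to 244 FPKM in WT and 899 to 1001 in CD38 KO. Cx3cr1 and Tmem119, both among the 15, passed the filter only through their CD38 KO values, so their calls say little. Siglech, a microglial lectin, was listed at 0 in every library. The fibroblast and meningeal markers summed to 469 to 471 FPKM in WT and 206 to 226 in CD38 KO, with 0 called higher and 3 lower of 10 tested, and most of that sum was Islr at 406 to 417 against 141 to 152 FPKM. Endothelial and pericyte markers summed to at most 2.11 FPKM. Among the oligodendrocyte markers 1 of 5 tested was lower (Olig2), and the ependymal factor Foxj1 was higher. Rarres2, the other tested ependymal marker, was not called, at 34.8 FPKM in WT and 30.0 in CD38 KO. The neuronal gene Stmn2 was higher, while the other neuronal markers were at most 0.120 FPKM.

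The 10 genes spanned 3 orders of magnitude. In WT their order by mean FPKM was C3, C1s1, Serping1, C1ra, C4b, C1qc, C1qa, C1qb, C2 and C3ar1. C1qc and C1qa overlapped in that order, as did C2 and C3ar1, and every other pair of neighbours was separated in both libraries. In CD38 KO the first 4 places were the same, but C1ra overlapped C1qc, the C1q genes and C3ar1 stood level with or above C4b, and C2 came last. C3 alone made up 81.4% to 83.3% of the summed FPKM of the 10 genes in WT and 81.6% to 82.6% in CD38 KO. Every gene was above 1 FPKM in all 4 libraries, the lowest being C2 at 1.86 FPKM in WT 1, so all 10 passed the filter in both genotypes.

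**Figure D1:**
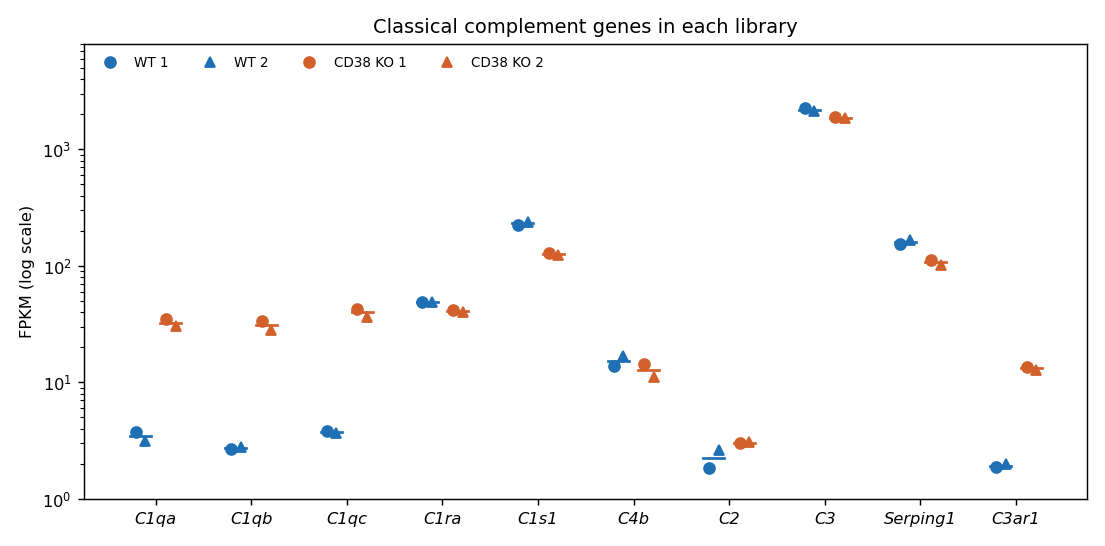
FPKM (log axis) of the 10 classical complement genes in each library, with circles for replicate 1, triangles for replicate 2 and a bar at the mean of each genotype. The C1q genes and C3ar1 lie far apart between WT and CD38 KO, C1s1 and Serping1 lie lower in CD38 KO, and the genotypes overlap for C4b.

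Of the 10 genes, 4 were called higher in CD38 KO (C1qa, C1qb, C1qc and C3ar1), 4 lower (C1s1, Serping1, C1ra and C3) and 2 were not called (C2 and C4b). Among all tested genes 8.0% were called higher and 6.35% lower, 14.4% in all. The median log2 change of the 10 genes was 0.05, beside 0.00 over all tested genes. By role, the recognition chains and the receptor rose, while both C1 proteases, their inhibitor and C3 fell. In 9 of the 10 genes both libraries of one genotype lay above both of the other, a pattern seen in 59.9% of tested genes. The 4 higher genes were called under all 15 other settings tried. C1s1 was too, whereas the calls of Serping1, C1ra and C3 ended under some of them. Among these settings, FPKM summed over gene IDs could change nothing, as none of the 10 genes has more than 1 gene ID.

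The chains of C1q, the recognition part of the cascade, were about an order of magnitude higher in both CD38 KO libraries. C1qa, which encodes the A chain, was at 3.75 and 3.17 FPKM in WT against 34.9 and 30.2 FPKM in CD38 KO. The groups were far apart, at 3.46 ± 0.412 against 32.6 ± 3.28 FPKM (mean and SD, n = 2 each), a 9.41-fold rise (log2 change 2.91, SE 0.10, limma adjusted p = 8.47e-05). C1qb, for the B chain, was at 2.67 and 2.81 FPKM in WT against 33.9 and 28.3 in CD38 KO. That was an 11.4-fold rise of the mean (log2 change 3.10, SE 0.10, limma adjusted p = 6.61e-05). C1qc, for the C chain, was at 3.81 and 3.66 FPKM in WT against 42.8 and 36.7 in CD38 KO, 10.6-fold higher (log2 change 3.10, SE 0.09, limma adjusted p = 4.83e-05). For each chain CD38 KO 1 was the highest library.

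The 3 chains kept nearly the same proportions while their sum changed. C1q needs all 3 chains, and their sum was 10.2 and 9.64 FPKM in WT and 112 and 95.2 FPKM in CD38 KO, a 10.4-fold difference of the means. C1qc was the most abundant chain in every library, at 37.2% and 38.0% of the sum in WT and 38.4% and 38.5% in CD38 KO. C1qa took 36.7% and 32.9% in WT and 31.2% and 31.8% in CD38 KO, and C1qb 26.1% and 29.2% against 30.4% and 29.7%. The shares of C1qa and C1qb in WT 1 stood apart from those of the other 3 libraries. In WT these values rest on few fragments. Estimated fragment numbers were 66 and 73 for C1qb in WT against 904 and 756 in CD38 KO, and 88 and 78 for C1qa against 881 and 766. The 95% exact Poisson interval of C1qb ran from 2.06 to 3.40 FPKM in WT 1 and from 26.3 to 30.4 FPKM in CD38 KO 2, and covers counting error only.

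C3ar1, the receptor by which phagocytes sense the C3a fragment, rose with the C1q genes. Its level was 1.87 and 1.98 FPKM in WT and 13.6 and 12.7 FPKM in CD38 KO. The mean was 6.83-fold higher (log2 change 2.27, SE 0.08, n = 2 each, limma adjusted p = 9.53e-05). Fragment numbers were estimated at 208 and 232 for WT against 1633 and 1532 for CD38 KO. The log2 change lay between 2.23 and 2.32 in the 4 fits that left out 1 library.

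Genes of microglia and macrophages moved with the C1q genes and C3ar1. Of the 20 markers, which hold none of the 10 genes, 17 had both CD38 KO libraries above both WT libraries. These include Mrc1, which was under the filter at 0.0971 FPKM in WT and 0.238 in CD38 KO. Among all tested genes 59.9% had genotypes that did not overlap, in either direction. The folds of the 17 tested markers ran from 1.01 for Cd14 to 12.1 for Cx3cr1, the fractalkine receptor, whose WT mean was only 0.527 FPKM. Their median was 6.10, Cx3cr1 and Tmem119 included. Lyz2, lysozyme, rose from 61.4 to 402 FPKM, Fcer1g, a signalling subunit of Fc receptors, from 7.55 to 60.4 and Fcrls, a receptor-like protein of microglia, from 4.71 to 49.6. Which cells in the cultures held the C1q and C3ar1 transcripts was not tested, and in bulk RNA more cells of a type and more RNA per cell cannot be told apart.

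C1s1, which encodes the protease C1s that cleaves C4 and C2, was lower in CD38 KO by the widest margin among the genes that fell. It was at 224 and 239 FPKM in WT against 128 and 125 FPKM in CD38 KO. The mean was 1.83-fold lower (231.7 ± 10.7 against 126.5 ± 2.71 FPKM, SD, n = 2 each; log2 change -0.87, SE 0.05, limma adjusted p = 0.000368), and the WT libraries were both clearly above. The change was called without any 1 library, at -0.91 to -0.82. C1ra encodes C1r, the protease that activates C1s, and it was at 49.1 and 49.0 FPKM in WT against 42.0 and 40.1 in CD38 KO. This smaller difference of 1.19-fold was called (log2 change -0.25, SE 0.05, limma adjusted p = 0.0254), but not without any 1 library (adjusted p up to 0.126) nor with no filter (0.0707) or without the trend (0.0695).

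The neighbouring protease genes thus changed by unequal amounts. The ratio of C1ra to C1s1 in FPKM was 0.219 and 0.205 in WT and 0.327 and 0.322 in CD38 KO, 1.53-fold higher, with no overlap between the genotypes. Each has a close copy nearby, C1rb and C1s2. Of the 50-base windows of C1ra transcripts 48.0% also occur in C1rb, and 21.9% of those of C1s1 occur in C1s2, so fragments can be split between copies. Summed over the copies, C1s1 plus C1s2 stood at 242 and 258 FPKM in WT and 137 and 133 in CD38 KO, and C1ra plus C1rb at 51.8 and 51.4 against 44.3 and 42.3. C1s2 itself was 2.15-fold lower (18.4 against 8.57 FPKM, limma adjusted p = 0.000606), while C1rb was at 2.58 against 2.24 FPKM and was not called. An antisense gene, Gm16567, overlaps C1s1 and was listed at 0 in every library. How strand was treated in counting is not given in the sources used here.

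Serping1, the C1 inhibitor that inactivates C1r and C1s, was also lower. Its values were 153 and 167 FPKM in WT and 113 and 102 FPKM in CD38 KO. The mean fell 1.48-fold (159.7 ± 9.96 against 107.5 ± 7.58 FPKM, SD, n = 2 each; log2 change -0.57, SE 0.07, limma adjusted p = 0.00571), and every WT value was above every CD38 KO value. The call ended without CD38 KO 2 (adjusted p = 0.0625) and with no filter (0.0644).

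The protease to inhibitor balance differed far less than the balance of C1q to proteases. C1ra plus C1s1 divided by Serping1 was 1.79 and 1.73 in WT and 1.51 and 1.61 in CD38 KO, with CD38 KO at 0.887 of the WT mean. The C1q sum divided by C1ra plus C1s1 was 0.0374 and 0.0335 in WT and 0.655 and 0.579 in CD38 KO, 17.4-fold higher. Put the other way, the protease transcripts outnumbered the C1q chains per length by 26.7 and 29.9 to 1 in WT and by 1.53 and 1.73 to 1 in CD38 KO. Exact permutation over 2 against 2 libraries cannot give a p below 0.333, so no p is given for these ratios of RNA, and they say nothing of protein.

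**Figure D2:**
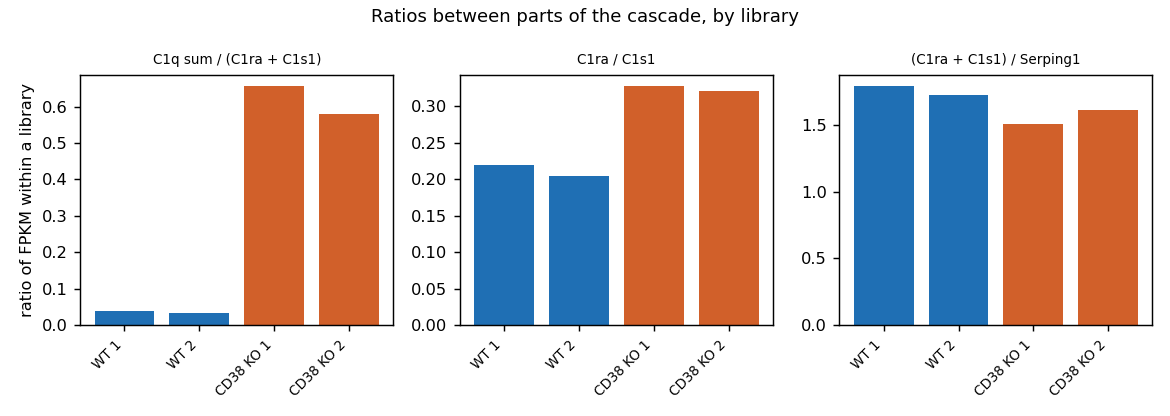
Ratios of FPKM within each library (bars start at 0; blue WT, orange CD38 KO, 1 bar a library); the C1q sum is C1qa, C1qb and C1qc together. C1q to proteases rises from 0.0335 to 0.0374 in WT to 0.579 to 0.655 in CD38 KO, while proteases to inhibitor stays between 1.51 and 1.79.

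C3, the protein on which all complement pathways converge, was among the most abundant transcripts of these cultures. It was at 2258 and 2121 FPKM in WT against 1892 and 1845 FPKM in CD38 KO, ranking 13 in each WT library and 14 and 18 in the CD38 KO libraries among 13064 genes. The difference of 1.17-fold (log2 change -0.23, SE 0.05, n = 2 each, limma adjusted p = 0.0372) was called, and the groups did not overlap. The call ended in each of the 4 fits without 1 library (adjusted p 0.144 to 0.230), with quantile normalization (log2 change -0.14), without the trend (0.0983) and with no filter (0.231). C3 divided by C3ar1 was 1206 and 1070 in WT and 139 and 145 in CD38 KO. This ratio of the ligand precursor to its receptor thus fell mainly through the rise of the receptor.

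The summed levels of the astrocyte, fibroblast and oligodendrocyte lineage markers were lower beside C1s1, C1ra, Serping1 and C3. The astrocyte sum in CD38 KO was 4111 to 4196 FPKM against 5008 to 5065 in WT, with Aldoc at 364 against 260 FPKM, Kcnj10 at 270 against 184, Glul at 1677 against 1214 and Gfap, not called, at 1360 against 1211. Not all astrocyte markers were lower: of the 12, 8 were called lower and 2 higher, Aldh1l1 at 125.5 against 153.0 FPKM and Gja1 at 56.1 against 66.6, while Slc1a2, not called, was at 212 against 266. In the fibroblast list Islr, which made up most of the sum, fell 2.81-fold and Pdgfra 2.90-fold. Col1a1 stood at 13.4 FPKM in WT and 21.8 in CD38 KO and was not called. Of the 10 tested fibroblast markers 3 were called lower and 7 were not called, with a median log2 change of 0.04. The oligodendrocyte lineage sum was 163 to 171 FPKM in WT and 135 to 149 in CD38 KO, mostly Olig1, which was not called. Of the 5 tested markers of that list 1 was called lower and 4 were not called. The part of these cell types in the lower complement genes was not tested.

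C4b and C2, the substrates of C1s that form the C3-splitting enzyme, were not called. C4b was at 13.7 and 16.7 FPKM in WT against 14.4 and 11.1 FPKM in CD38 KO, and the genotypes overlapped. Its log2 change was -0.24, with a 95% interval from -0.59 to 0.12 (limma adjusted p = 0.324). C2 was at 1.86 and 2.62 FPKM in WT against 3.01 and 3.05 FPKM in CD38 KO, where both libraries were above WT. Its log2 change was 0.32 with an interval from -0.03 to 0.68 (limma adjusted p = 0.194), so the data do not set its direction.

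Both substrate genes share sequence with neighbours, which limits their values. C4b shares 34.6% of its 50-base windows with its copy C4a, and the sum of both was 15.3 and 18.8 FPKM in WT and 16.5 and 13.4 in CD38 KO, again overlapping. C2 shares 38.7% of its windows with Gm20547, a transcript that runs from C2 into the neighbouring gene Cfb, and the files give C2 and Cfb one common position range. Gm20547 itself was at most 0.394 FPKM. Cfb, the alternative-pathway counterpart of C2, was at 4.51 and 5.32 FPKM in WT against 4.57 and 3.23 in CD38 KO and was not called.

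**Figure D3:**
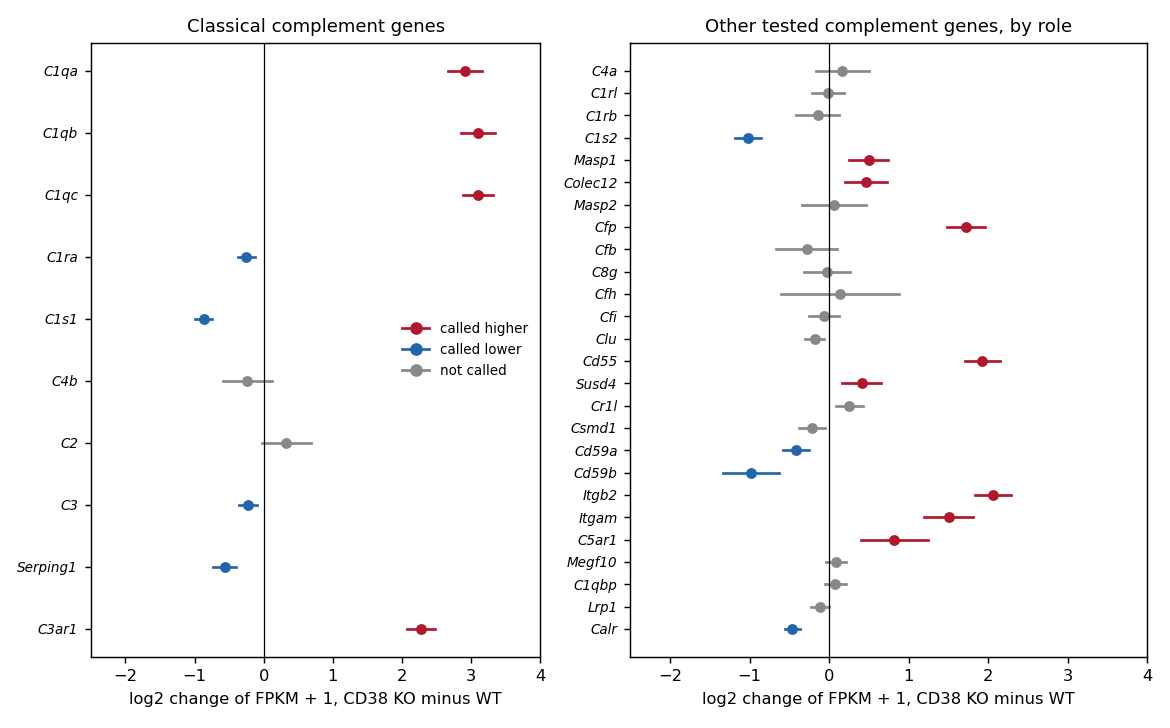
Log2 change of FPKM + 1 (CD38 KO minus WT) with its 95% interval from limma for the 10 classical genes (left) and the 26 other tested complement genes ordered by role (right), red for called higher, blue for called lower and grey for not called. C1qa, C1qb, C1qc and C3ar1 have changes above 2, while C1s1 and C1s2 lie near -1.

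The rest of the complement system was read from a list of 55 further genes, of which 54 are in the files and 26 passed the filter. Of the 26, 8 were called higher and 4 lower, while among all tested genes 8.0% were called higher and 6.35% lower. The median log2 change of the 26 was 0.07, beside 0.00 over all tested genes. The chains of CR3, a receptor that binds C3 fragments on phagocytes, were among the higher genes. Itgb2, the common chain of CR3 and CR4, was at 1.91 against 11.2 FPKM (log2 change 2.06). Itgam, the CR3 alpha chain, was at 0.844 against 4.24 FPKM. Itgax and Vsig4, in the same group of receptors, were under the filter and were not tested. C5ar1, the receptor for C5a, was at 0.575 against 1.80 FPKM, a call that ended without WT 1, WT 2 or CD38 KO 2 (limma adjusted p up to 0.127). Itgam and C5ar1 passed the filter only through their CD38 KO values. Calr, calreticulin, a chaperone that also binds C1q at the cell surface, fell from 490 to 356 FPKM (limma adjusted p = 0.0015), and Lrp1, C1qbp and Megf10 were not called.

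In the alternative pathway Cfp, which encodes the stabilizer properdin, rose 3.71-fold from 5.48 to 20.3 FPKM (limma adjusted p = 0.000344). Lectin pathway genes were called higher with weaker support, Masp1, a protease of the family of C1r and C1s, at 3.60 against 5.48 FPKM and Colec12, a scavenger collectin, at 2.32 against 3.60. Both calls ended in each of the 4 fits without 1 library (limma adjusted p up to 0.163 and 0.164). Masp2 was at 4.87 against 5.13 FPKM and was not called.

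The membrane regulators, which shield host cells from complement, went both ways. Cd55, which speeds the decay of the C3 convertase, rose 5.22-fold from 1.99 to 10.4 FPKM (limma adjusted p = 0.000171). Cd59a and Cd59b, which block the membrane attack complex, fell from 30.6 to 22.6 and from 3.61 to 1.31 FPKM. Susd4 was called higher at 4.27 against 5.98 FPKM. The Susd4 call ended in each of the 4 fits without 1 library (limma adjusted p up to 0.222), that of Cd59a in 3 of them (up to 0.116) and that of Cd59b without either CD38 KO library (up to 0.0944). Among the soluble regulators none of 3 tested genes was called by limma, and 1 had an unadjusted p under 0.05. Clu, clusterin, the most abundant of them, was at 1324 FPKM in WT and 1167 in CD38 KO (limma adjusted p = 0.0622). Of the terminal components only C8g was tested, at 2.42 and 2.11 FPKM in WT and 2.32 and 2.08 in CD38 KO.

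**Figure D4:**
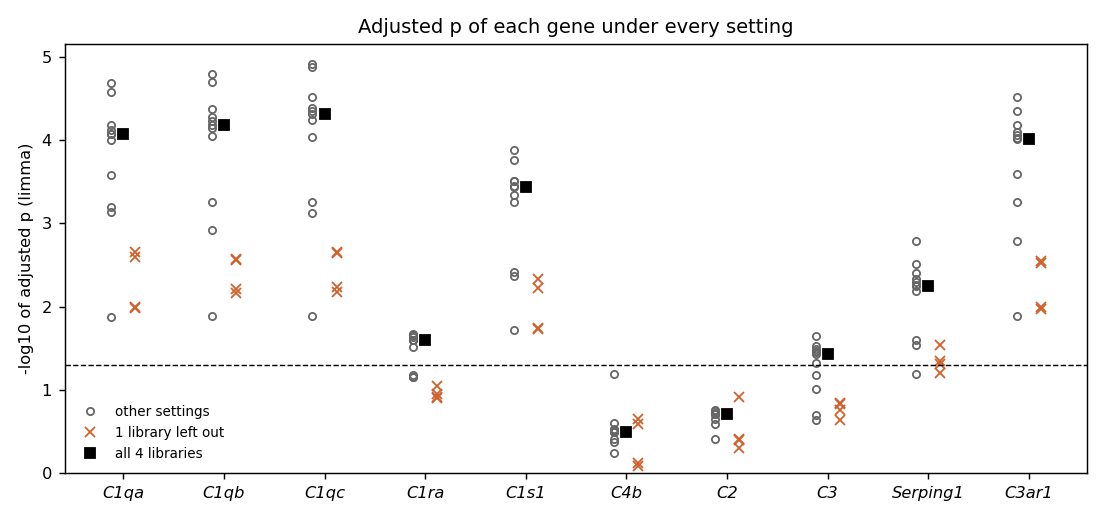
Minus log10 of the limma adjusted p of each of the 10 genes with all 4 libraries (black squares), in the 4 fits without 1 library (orange crosses) and in the other settings (open circles), with the dashed line at 0.05. C1qa, C1qb, C1qc, C3ar1 and C1s1 stay above the line in every fit, Serping1 falls below it in 2, C1ra and C3 in several, and C4b and C2 never reach it.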

How the data were processed

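The 10 genes, the gene lists and the tests were chosen with earlier results of these data known. The 2 WT and 2 CD38 KO astrocyte libraries were stranded and polyA-selected, per the labels' protocols. The deposited values are FPKM per gene, per the file headers, and the build GRCm38 and the tools STAR 2.7.0f, Cufflinks 2.2.1 and bcl2fastq 2.17 come from the submitters' processing notes. Positions are from GENCODE M21 (GRCm38), which matched 55226 of 55467 gene IDs.

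Genes whose mean reached 1 FPKM (13064) were tested in R 4.3.3 by limma 3.58.1 after log2(FPKM + 1). The model held genotype alone, variances were moderated with a trend, and p-values were adjusted by Benjamini-Hochberg across these genes (0.05). Folds are ratios of mean FPKM without the added 1. The fit was tested on simulated data. Fragments were estimated from the steps of low FPKM values in genes with 1 transcript over 600 bases, where 91.8% to 92.5% of low values fell within 0.1 of a whole number. Intervals on fragments are exact Poisson and cover counting error only. Other steps used Python 3.11.15.

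All 10 genes were named. From the wider complement list each called gene and the most abundant tested gene of each role were named, and from each marker list (microglia and macrophages, astrocytes, fibroblasts and meninges, endothelium, pericytes, oligodendrocyte lineage, ependyma, neurons) the 2 tested genes of highest mean and the 2 of smallest p that bear on a result. Cx3cr1, Tmem119, Cd14, Siglech, Mrc1, Itgax, Vsig4, Aldh1l1, Gja1, Slc1a2, other genes that were not called and the near-identical copies were named after their values were seen. Alternatives were 0.1 or 0.5 FPKM added, no filter, a filter at 5 FPKM, quantile or median-of-ratios scaling, a replicate block, moderation without trend or robust, each library left out, and FPKM summed over the gene IDs of a symbol, which no gene of the 10 needed. A block with crossed numbers was added after seeing the data. The ratio of C1q to the microglia marker sum is not reported here.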

Additional observations from a re-analysis of the deposited data

How the results depend on the processing

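No alternative reversed the direction of any of the 10 genes, and the number called higher was 4 under each of the settings. The number called lower, 4 with all libraries, was 1 to 2 with a library left out, 1 with no filter, 2 with the replicate block and 2 without trend. The calls lost under the replicate block were those of C1ra (adjusted p = 0.0667) and C3 (0.0663), by limma. Over all genes, 1045 higher and 830 lower became 306 to 458 and 225 to 284 with a library left out, 430 and 312 with no filter, and 610 and 427 with the replicate block. In the wider complement list, 8 higher and 4 lower became 4 to 5 and 2 to 4 with a library left out, 4 and 2 with no filter, and 4 higher with the replicate block, 3 with a filter at 5 FPKM, which tests fewer genes, and 5 with quantile normalization. The cause was not tested. Same-numbered libraries are not shown to be paired, as their deviations correlated at r = -0.161 across genes. A block pairing WT 1 with CD38 KO 2 called 1102 genes higher and 859 lower. With 2 libraries a genotype, differences as small as that of C3 or C1ra were not called from 3 libraries. With a library left out, its genotype has 1 library, taken to vary like those of the other genotype.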

Other observations

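Complement genes under the filter were not tested, and their values are given without a comparison. Of the 29, 28 are in the files, with means over all 4 libraries of at most 0.498 FPKM. Of these, 9 were listed at 0 in all libraries, among them Cfd, C7 and C9. Hc, which encodes C5, had 0.600 and 0.768 FPKM in the WT libraries and 0.328 and 0.296 in the CD38 KO ones. Srpx2, a secreted protein known to bind C1q, had 0.233 and 0.183 against 0.531 and 0.536 FPKM. Fcna, a ficolin of the lectin pathway, was at 0.176 and 0.117 against 0.600 and 0.513 FPKM. Cr2, a receptor for C3 fragments, had 0.0290 and 0.0138 against 0.451 and 0.182 FPKM. These genes were chosen after their values were seen.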
